A study of Saccharomyces cerevisiae with 44 samples.

Results

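Total RNA of Cbp80-PrA yeast lacking THO2 was compared with total RNA of Cbp80-PrA yeast with THO2 intact. The comparison took 3 tho2Δ and 3 wild type libraries, 6 of the 30 libraries and 11 of the 44 sequencing samples of the series, and all were chosen by their labels. Both groups were Saccharomyces cerevisiae of the BY4741/2 background that carried SNAPf-YRA1, in which the mRNA export adaptor Yra1 has a SNAPf tag, and CBP80-PPX-PrA, in which the cap-binding protein Cbp80 has a protein A tag. The tho2Δ group carried in addition a deletion of THO2, so the wild type of this comparison is wild type for THO2 alone. Cells were grown in YPD at 30 °C and lysed by cryo-grinding, the lysate was treated with 0.2% formaldehyde, and the RNA came from 7.5% of that lysate before any pulldown. Libraries were made with QuantSeq, which reads a tag near the 3′ end of each transcript, and the values are tags per gene after removal of duplicates by unique molecular identifiers. No-tag strains of the same 2 THO2 genotypes, with SNAPf-YRA1 and no protein A tag, gave 6 further total RNA libraries and are used below where the Cbp80-PrA pair differed from them.

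THO is a nuclear complex of Tho2, Hpr1, Mft1, Thp2 and Tex1 that joins nascent transcripts during transcription. With the RNA helicase Sub2 and the adaptor Yra1 it forms TREX, which links transcription to the packaging and export of mRNA. Yeast without THO is known for poor transcription of long or GC-rich genes and for hybrids of RNA with DNA behind the polymerase. Cbp80 and its partner Cbp20 bind the cap of new mRNAs in the nucleus.

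Each tho2Δ library held 557632, 460232 and 581824 counts on genes, and each wild type library 460021, 505860 and 482718. Counts were scaled to CPM (a gene's count per 1000000 counts of the library) with TMM factors, which set the bulk of genes to equal levels between libraries, so that 1 count was worth 1.68 to 2.23 CPM and every change below is a change in share of the counted RNA. In such bulk RNA, a change in RNA per cell and a change in the number of cells that make it cannot be told apart. Replicates correlated at r = 0.959 to 0.976 across genes. Replicate 1 of tho2Δ was read on 1 sequencer and the other 5 libraries on 2. The samples are labelled as separate replicates, and p-values measure the spread between these samples.

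THO2 (YNL139C, chromosome XIV, 360924 to 365717 on the minus strand of R64) had 1, 0 and 0 counts in the tho2Δ libraries. In wild type it had 71, 79 and 83 counts. The ratio of wild type to tho2Δ was 270.7, with an exact 95% interval of 48.1 to 10739 that covers counting error only. The labels therefore matched the genotype in all 6 libraries. The marker genes LEU2, LYS2, MET17 and URA3 had 0 counts in all 6, whereas HIS3 had 46, 35 and 52 counts in tho2Δ and 53, 54 and 63 in wild type.

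Differences were tested with edgeR's quasi-likelihood test and p-values were adjusted by the method of Benjamini and Hochberg over 4792 genes. A gene is called here when its adjusted p was under 0.05 and its log2 fold change (tho2Δ over wild type, given ± its standard error) exceeded 1 in size. Genes that passed the adjusted p are said to rise or fall, whether or not they were called, and the size given with "rose by" or "fell by" is the log2 fold change. Of the 4792 genes 256 were called higher in tho2Δ, which is 5.34%, and 104 were called lower, which is 2.17%. By the adjusted p alone 680 genes rose (14.2%) and 646 fell (13.5%). The higher calls were not spread over the genome, since 170 of them (66.4%) lay on chromosome XVI.

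None of the other subunits of THO passed the test. HPR1, whose product is the partner of Tho2 in the core of THO, stood at 156, 169.5 and 156 CPM in tho2Δ and at 161, 168 and 174 CPM in wild type, a log2 fold change of −0.07 ± 0.14. MFT1 had a log2 fold change of 0.27 ± 0.11, THP2 of 0.07 ± 0.46, TEX1 of −0.26 ± 0.37 and SUB2 of −0.19 ± 0.09, and none of these 5 genes passed the adjusted p (0.061 to 0.931). YRA1 fell from 101, 95.4 and 104 CPM in wild type to 65.8, 57.9 and 60.4 CPM in tho2Δ, a log2 fold change of −0.70 ± 0.18 (adjusted p = 0.00263 with edgeR). STO1, the gene of the tagged Cbp80, fell from 219, 175 and 253 CPM to 135, 144 and 126 CPM. Its log2 fold change was −0.68 ± 0.15 (adjusted p = 0.00034) and in no-tag strains −0.02 ± 0.14, and the difference between both passed the test (adjusted p = 0.0272). Of the 9 genes listed as THO and TREX, THO2 alone was called. Near THO2, the adjacent gene AAH1 (adenine deaminase) fell, with a log2 fold change of −0.90 ± 0.16, and EAF7 (a subunit of a histone acetyltransferase complex) rose, at 0.88 ± 0.12.

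Genes of chromosome XVI were about 2-fold higher in tho2Δ along the whole chromosome. Of its 389 tested genes 377 had a log2 fold change above 0, 328 rose and 3 fell, and 170 were called higher and 1 lower. The median log2 fold change was 0.95, with quartiles of 0.69 and 1.15. The chromosome took 13.3%, 13.1% and 13.3% of the counts of the tho2Δ libraries. In wild type it took 7.37%, 7.53% and 7.45%, so the groups did not overlap (exact two-sided permutation p = 0.10, the lowest that 3 against 3 can give, and 0.142 when adjusted over 17 chromosomes). Over 19 windows of 50 kb with at least 5 tested genes of 20 CPM or more in wild type the median ran from 0.80 to 1.12. In the no-tag pair the median of the same genes was 0.00, and the difference between the pairs passed the test for 212 of the 389 genes (54.5%, against 9.6% of all tested genes), 211 of them with the higher value in the Cbp80-PrA pair. The Yra1 pulldown libraries of the same 2 Cbp80-PrA strains, which are other libraries, had medians of 0.89, 0.88 and 1.03 over 352 genes of the chromosome. These were coding genes of at least 20 CPM in the wild type pulldown. Unlike the total RNA medians, each pulldown value was set relative to the median of genes off chromosomes II and XVI. No DNA was measured, and the cause of this shift was not tested.

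Chromosome II had a smaller shift of the opposite sign. Its 370 tested genes had a median log2 fold change of −0.28, 279 lay below 0, 117 fell and 12 rose, with 20 called lower and 6 higher. It took 10.4%, 10.9% and 9.93% of the counts in the tho2Δ libraries and 12.7%, 12.7% and 12.7% in wild type, again without overlap. Such separation was not particular to this chromosome. Chromosomes I, V, VI, VII, VIII, IX, X, XII, XIII and XV also had a lower share in every tho2Δ library (exact permutation p = 0.10 each, 0.142 adjusted). Shares add up to a whole, so a higher share of chromosome XVI lowers the others. The 16 windows of 50 kb with at least 5 tested genes of 20 CPM or more in wild type ran from −0.54 to −0.14. The no-tag pair ran from −0.19 to 0.09 there. The last window of the chromosome, with 2 such genes, had the opposite sign, at 1.11 and in the no-tag pair 0.997. In the 3 pulldown libraries the chromosome II median, set in the same way as for chromosome XVI, was −0.20, −0.26 and −0.33. The other nuclear chromosomes had medians of −0.12 to 0.03. Because of these shifts, counts below are also given for genes off chromosome XVI, of which 4403 were tested, 86 called higher (1.95%) and 103 called lower (2.34%), and, where it matters, off both chromosomes. With scaling factors taken from genes off chromosome XVI, calls over all genes were 281 higher and 84 lower, and with total counts 314 and 73.

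**Figure D1:**
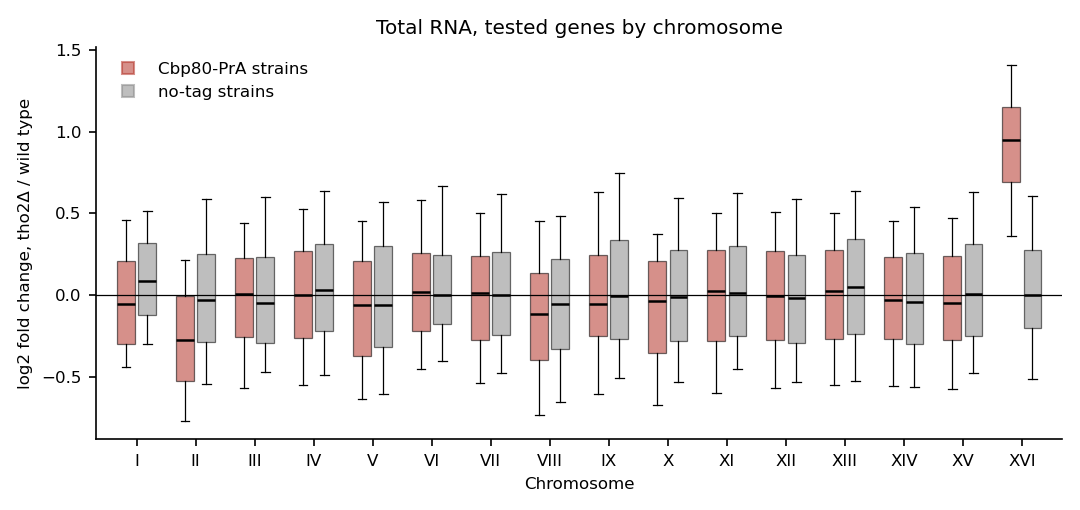
Log2 fold changes (tho2Δ over wild type, y axis) of the tested genes by nuclear chromosome (x axis), for the Cbp80-PrA and the no-tag strains; boxes span the quartiles with a line at the median, and whiskers run from percentile 10 to percentile 90. In the Cbp80-PrA strains chromosome XVI sits apart with a median of 0.95 and chromosome II lies below 0 at −0.28, where the no-tag medians are 0.00 and −0.03.

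Apart from THO2 itself, the deepest losses were in genes of phosphate starvation. In yeast that lacks inorganic phosphate, the factor Pho4 enters the nucleus with its partner Pho2 and turns on genes for phosphate uptake, secreted and vacuolar phosphatases, and the polyphosphate polymerase of the vacuole, while the kinase Pho85 with its cyclin Pho80 keeps Pho4 out when phosphate is plentiful. Pho4 binds the letters CACGTG. This motif (the same on both strands) was found in the 500 nt before the start codon in 9 of the 10 phosphate starvation targets that were called lower (90%), against 372 of 5900 coding genes (6.31%). The list is made of known Pho4 targets, and 13 of all 18 tested members (72.2%) held the motif, as did 12 of the 96 coding genes called lower off chromosome XVI (12.5%). CACGTG or its variant CACGTT was found in 10 of these 10 and in 21.2% of all genes. Stretches of 50 nt of the R64 genome around the motif are printed 5′ to 3′ on the coding strand for 8 of these genes, to show what their promoters share, with CACGTG in capitals.
PHO84 (chrXIII:26187-26236, minus strand): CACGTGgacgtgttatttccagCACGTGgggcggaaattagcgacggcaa
SPL2 (chrVIII:375104-375153, minus strand): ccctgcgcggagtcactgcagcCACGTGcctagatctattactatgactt
PHO5 (chrII:431177-431226, minus strand): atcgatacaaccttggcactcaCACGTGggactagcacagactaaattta
PHO12 (chrVIII:551794-551843, plus strand): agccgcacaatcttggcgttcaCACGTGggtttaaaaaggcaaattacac
PHM6 (chrIV:1022573-1022622, minus strand): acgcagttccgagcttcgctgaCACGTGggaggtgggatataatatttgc
VTC3 (chrXVI:517302-517351, minus strand): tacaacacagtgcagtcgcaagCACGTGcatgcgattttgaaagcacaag
VTC4 (chrX:413485-413534, minus strand): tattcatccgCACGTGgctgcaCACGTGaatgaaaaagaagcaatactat
VTC1 (chrV:302627-302676, plus strand): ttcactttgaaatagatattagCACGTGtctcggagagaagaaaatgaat
A match is a description of the sequence and no evidence of binding in these cells.

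PHO84 (YML123C), the high-affinity phosphate transporter of the plasma membrane, was counted 0 times in all 3 tho2Δ libraries. In wild type it stood at 206, 185 and 144 CPM. Against a floor of 3 counts over the 3 tho2Δ libraries it was at least 97.2-fold lower. In no-tag strains it fell to 20.9, 6.74 and 0 CPM from 195, 148 and 167 CPM, and the difference between the pairs passed the test (adjusted p = 0.0106 with edgeR). PHO84 overlaps the noncoding gene YNCM0001W on the opposite strand, and how the counting treated strand is not given in the sources used here.

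SPL2, whose product acts on the low-affinity phosphate transporters, had 1, 1 and 1 counts in tho2Δ and 37, 36 and 22 in wild type. It was 36.8-fold lower, with an exact 95% counting interval of 12.2 to 182. PHO12, a secreted acid phosphatase, had 0, 2 and 1 counts against 20, 31 and 16, a ratio of 26.0 (8.51 to 129). Its near-identical copy PHO11 was too low to be tested, with 1, 1 and 1 counts against 4, 9 and 4. Reads of PHO11 and PHO12 could be exchanged between them. PHM6, a gene of the phosphate regulon, had 1, 0 and 1 counts against 11, 5 and 9, a ratio of 14.5 (3.62 to 127). PHO5, the main secreted acid phosphatase, stood at 5.19, 4.29 and 8.39 CPM in tho2Δ and at 53.6, 79.1 and 55.2 CPM in wild type, a log2 fold change of −3.32 ± 0.38 (adjusted p = 1.46e-09). In each of these genes every tho2Δ library was below every wild type library, which was also a condition for naming the 14 lowest genes.

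The subunits of the VTC complex, which makes vacuolar polyphosphate, fell together. VTC4, the catalytic subunit, went from 125, 136 and 129.5 CPM to 62.3, 55.8 and 36.9 CPM, a log2 fold change of −1.34 ± 0.19. VTC3 lies on chromosome XVI and was the one gene called lower there. It had 149, 148 and 164 CPM in tho2Δ and 380, 455 and 336 CPM in wild type, a log2 fold change of −1.34 ± 0.15, and −2.04 ± 0.16 in no-tag strains. VTC1 fell by 1.16 ± 0.21 on the log2 scale, and without wild type replicate 2 the change was −0.91 and no longer a call. VTC2 had a log2 fold change of −1.0 ± 0.09 that passed the adjusted p (1.85e-11) just inside the fold limit. PHO81, the inhibitor of Pho85 in starved cells, fell by 1.40 ± 0.22. PHO8, the vacuolar alkaline phosphatase, stood at 22.5, 47.2 and 20.1 CPM in tho2Δ and 64.8, 46.7 and 65.8 CPM in wild type. Its groups overlapped, and the call at −1.03 ± 0.28 was lost without either of tho2Δ replicates 1 and 3 or wild type replicates 1 and 3.

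Of 21 genes listed as phosphate starvation targets 18 were tested, 10 were called lower, 2 were called higher and 12 fell. Over all tested genes 2.17% were called lower, 5.34% were called higher and 13.5% fell. The median log2 fold change of the 18 was −1.09 (also with PHO84 set at its bound), against 0.00 over all tested genes. Off chromosome XVI the counts were 9 lower and 1 higher of 15, where 2.34% and 1.95% of all genes were called. Off chromosomes II and XVI they were 8 lower and 1 higher of 13. In the no-tag pair 9 of the 18 were called lower and 1 higher, with a median of −1.10 (over all genes, 1.21% were called lower there and 3.86% higher). The genes called higher were PHM8, a lysophosphatidic acid phosphatase, at 173, 127 and 107 CPM against 51.4, 58.9 and 65.8 CPM (log2 fold change 1.21 ± 0.21), and GDE1, a glycerophosphodiesterase on chromosome XVI, at a log2 fold change of 1.0 ± 0.17. The call of PHM8 was lost without tho2Δ replicate 1 (0.98), and that of GDE1 without tho2Δ replicate 1 or wild type replicate 1 or 2 (0.95 at the lowest). PHO3, an acid phosphatase next to PHO5 that responds to thiamine rather than phosphate, stood at 222, 215 and 195 CPM against 192, 179 and 200 CPM (0.14 ± 0.15), and did not pass the test.

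PHO81 aside, the regulators were held in a separate list of phosphate signalling and low-affinity uptake, and of its 10 tested genes none was called. PHO4, PHO2 and PHO80 did not pass the test, PHO90 (a low-affinity transporter) had a log2 fold change of −0.65 ± 0.13 and VIP1 (an inositol pyrophosphate kinase) of −0.60 ± 0.16, and both fell. PHO85, which lies on chromosome XVI, rose by 0.55 ± 0.20, below the median of that chromosome, and did not pass without tho2Δ replicate 1 or wild type replicate 1 or 3 (0.46 at the lowest). PHO86, which helps Pho84 to leave the endoplasmic reticulum, fell by 0.34 ± 0.11.

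**Figure D2:**
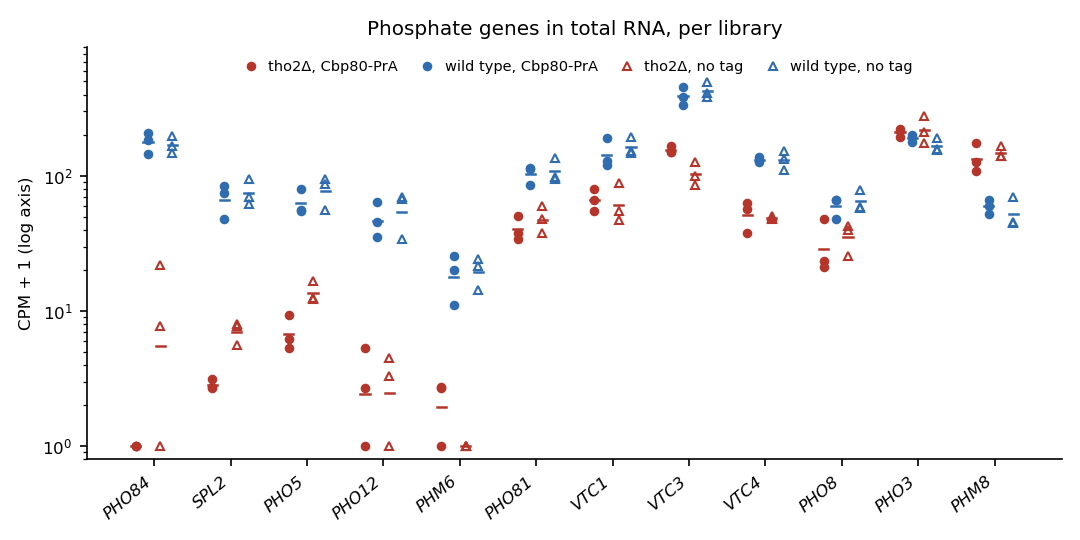
CPM + 1 on a log axis (y axis) of phosphate genes (x axis) in each total RNA library, with 1 point a library and the 4 groups set side by side in colour. PHO84 lies at 0 CPM in all 3 Cbp80-PrA tho2Δ libraries and at 144 to 206 CPM in wild type, and PHO3 keeps overlapping points.

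Most genes with the longest coding regions fell. Off chromosome XVI, 33 of the 35 coding genes longer than 6000 nt fell (94.3%), against 618 of all 4258 tested coding genes there (14.5%). Of the 35, 9 were called lower and 0 higher, where 96 and 79 of the 4258 were. The median log2 fold change of the 35 was −0.83. From 4000 to 6000 nt 74 of 132 fell (56.1%) with a median of −0.43, from 3000 to 4000 nt 83 of 241 (34.4%) with −0.26, and from 2000 to 3000 nt 101 of 687 (14.7%) with −0.11. Medians of the 3 classes between 500 and 2000 nt were 0.01 to 0.05, so the medians did not move with length there. Over all 4258 genes Spearman's rho between coding length and log2 fold change was −0.158, and 0.0487 in the no-tag pair. The class up to 500 nt, in which many ribosomal protein genes fall, had a median of −0.08, and of 0.04 without them. QuantSeq takes its tag near the 3′ end, and whether counts here depend on gene length was not tested. Wild type levels rose with length too, to a median log2 CPM of 8.85 in the longest class, and their part in the result was not tested. Off chromosomes II and XVI 29 of 31 genes over 6000 nt fell, with a median of −0.77, where 13% of all tested genes fell.

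REA1, the midasin ATPase that strips factors from the large ribosomal subunit, is the longest of these at 14733 nt (chromosome XII, 349006 to 363738). It stood at 770.2, 805 and 867 CPM in tho2Δ and at 2384, 2029 and 2168 CPM in wild type, a log2 fold change of −1.43 ± 0.10 (adjusted p = 2.34e-15). DYN1, the heavy chain of cytoplasmic dynein, with 12279 nt, fell from 339.5, 319 and 321 CPM to 83.1, 107 and 87.2 CPM, a log2 fold change of −1.83 ± 0.14. Every tho2Δ library was far below every wild type library for both genes. IRA2, which with IRA1 turns Ras off, went from 503, 418 and 544 CPM to 216, 206 and 223 CPM (−1.18 ± 0.13), and IRA1 had −1.02 ± 0.12. IRA1 lies on chromosome II. FAS1, the beta subunit of fatty acid synthase, fell by 1.22 ± 0.11, and CSF1, a large lipid transfer protein, by 1.21 ± 0.16. TOR1 (the growth-controlling kinase), POL2 (the catalytic subunit of DNA polymerase epsilon) and HFA1 (the mitochondrial acetyl-CoA carboxylase) had log2 fold changes of −1.03, −1.03 and −1.02. The calls of IRA1, TOR1, POL2 and HFA1 were lost when 1 library was left out, with the weakest values at −0.95, −0.90, −0.96 and −0.96 (IRA1 without tho2Δ replicate 2 or wild type replicate 1, TOR1 and POL2 without replicate 1 of either group, HFA1 without wild type replicate 3), and the fall itself kept passing the adjusted p in each of those fits.

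The genes over 6000 nt that did not pass the test were CYR1 (adenylate cyclase) at −0.58 ± 0.23 (0.53 in no-tag strains) and CCH1 (a calcium channel) at −0.49 ± 0.23. TAO3, a scaffold of cell morphogenesis, fell by 0.61 ± 0.17, and not when tho2Δ replicate 3 was left out (−0.50, adjusted p = 0.0544). On chromosome XVI the 2 longest genes, SEC16 (a coat assembly factor of secretion) and HOB2, had log2 fold changes of 0.38 ± 0.10 and 1.09 ± 0.19, against the median of 0.95 for that chromosome. In the no-tag pair 16 of the 35 long genes fell, with a median of −0.29, against 10.4% of all tested genes off chromosome XVI. The difference between the pairs passed the test in 16 of the 35, against 5.63% of those genes, and in all 16 the Cbp80-PrA value was the lower one, IRA2 among them (−0.23 ± 0.12 without the tag, adjusted p of the difference 0.000146).

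**Figure D3:**
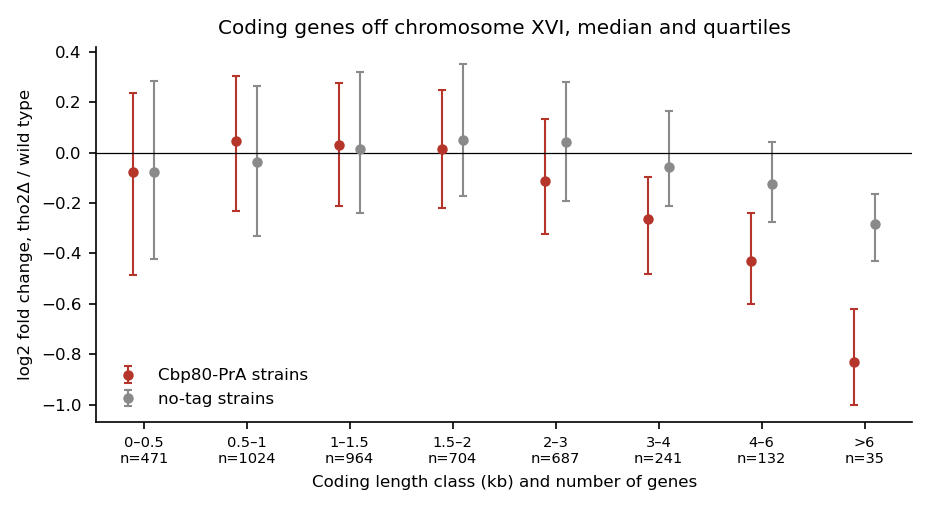
Median log2 fold change (tho2Δ over wild type, y axis) of coding genes off chromosome XVI in classes of coding length (x axis, kb, with the number of genes), for the Cbp80-PrA and the no-tag strains, with bars for the quartiles. The Cbp80-PrA medians go from 0.05 in the class of 500 to 1000 nt to −0.83 above 6000 nt, and the no-tag median of the longest class is −0.29.

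Genes of the translation machinery fell as well. Of 136 tested ribosomal protein genes 91 fell and 29 were called lower, with a median log2 fold change of −0.83, where 13.5% of all tested genes fell and 2.17% were called lower. The 3 that rose all lay on chromosome XVI, and off that chromosome 91 of 125 fell and 0 rose, with a median of −0.84 (14.6% of all genes fell there). Off chromosomes II and XVI 82 of 115 fell and 22 were called lower, with a median of −0.83. Near-identical copies exist for 91 of the 136, so the split of reads within such pairs is uncertain. RPL21A stood at 1251, 1349.8 and 1272 CPM in tho2Δ and at 3259, 2512 and 3300.3 CPM in wild type (log2 fold change −1.23 ± 0.11). RPS8B stood at 319, 363 and 359 CPM against 880.1, 731 and 845 CPM (−1.24 ± 0.11). RPS11B and RPL8A had log2 fold changes of −1.23 ± 0.16 and −1.25 ± 0.18. RPL21A and RPS11B lie on chromosome II. RPS9A, on chromosome XVI, was the one called higher, at 1.05 ± 0.20 (0.91 without wild type or tho2Δ replicate 3, at the lowest, and then no call). In the no-tag pair the median of the list was −0.73 with 10 called lower. The count of 29 fell to 18 with total counts as the scaling, and 0 of these genes passed a test against the fold limit itself.

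IFH1, the coactivator that is recruited to ribosomal protein promoters by Fhl1, moved the other way. It stood at 2494, 2421 and 2545 CPM in tho2Δ and at 811, 702 and 777 CPM in wild type, a log2 fold change of 1.70 ± 0.09 (adjusted p = 1.42e-18), and of 1.61 ± 0.09 in no-tag strains. It has 3258 nt, and of the 241 coding genes of 3000 to 4000 nt off chromosome XVI 7 rose and 83 fell.

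Off chromosome XVI, 10 of 18 aminoacyl-tRNA synthetase genes fell and 0 rose (median −0.31), as did 12 of 32 translation factor genes with 0 rising (median −0.27). Of 59 genes of amino acid synthesis 25 fell and 0 rose (4 called lower, median −0.25), and of 27 genes of nucleotide synthesis 10 fell and 0 rose (2 called lower, median −0.42). The background there was 14.6% falling and 7.99% rising, with 2.34% called lower. BAT2, the cytosolic branched-chain aminotransferase, stood at 256, 204 and 232 CPM in tho2Δ against 686, 798 and 729 CPM (−1.67 ± 0.11). FUI1, the uridine permease, fell by 1.48 ± 0.13 and FUR1, uracil phosphoribosyltransferase of the salvage pathway, by 1.49 ± 0.26. FUI1 lies on chromosome II. Of 10 tested histone genes off chromosome XVI 4 fell, HTA1 by 1.45 ± 0.22, HHF1 by 1.12 ± 0.35, HTA2 by 0.68 ± 0.14 and HHF2 by 0.60 ± 0.17. HHF1 and HTA2 lie on chromosome II. Off chromosomes II and XVI 2 of 6 histone genes fell and 1 was called lower, where 13% of all tested genes fell. HTA1 with HTA2 and HHF1 with HHF2 are near-identical pairs, and HHF1 lost its call without any of tho2Δ replicates 2 and 3 and wild type replicate 2, at −0.88 in the weakest fit, while HHF2 no longer passed without wild type replicate 1 or 3 (−0.43).

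**Figure D4:**
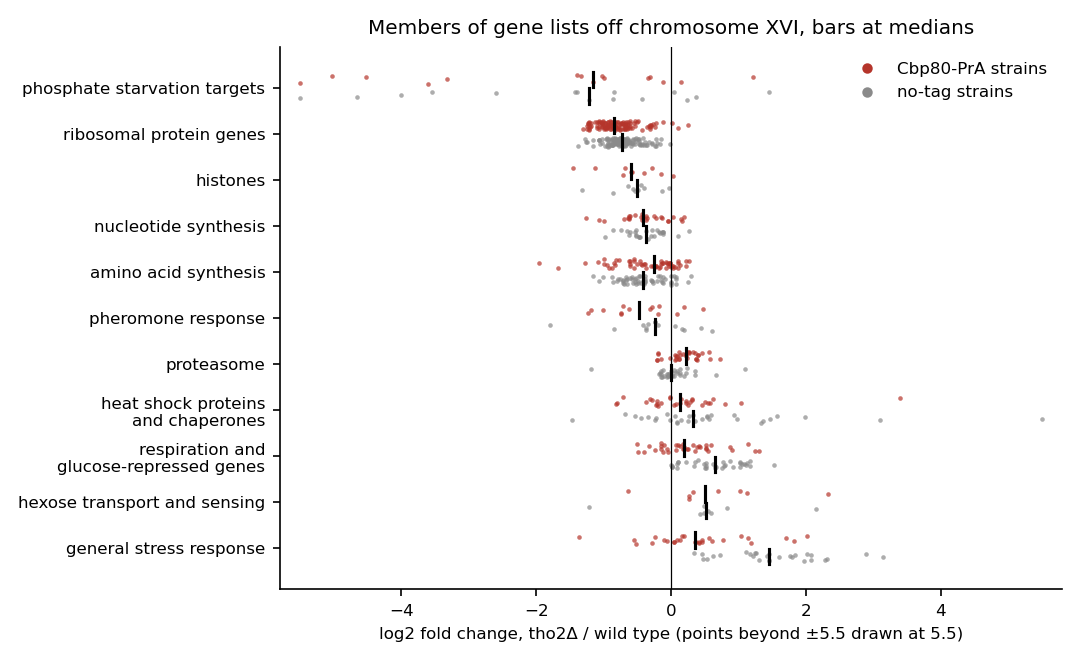
Log2 fold changes (tho2Δ over wild type, x axis) of the members of gene lists off chromosome XVI (y axis), with 1 point a tested gene, Cbp80-PrA and no-tag strains in colour and bars at the medians. The ribosomal protein genes centre on −0.84 and the phosphate starvation targets on −1.16 in the Cbp80-PrA strains, and the general stress genes on 0.36 in Cbp80-PrA and 1.45 in no-tag strains.

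Genes called higher off chromosome XVI were mostly genes of low level in wild type. The 79 coding genes among them had a median log2(CPM + 1) of 4.44 in wild type, against 6.51 over all 4258 tested coding genes there and 6.99 in the 96 called lower. The wild type level is also the base of the fold change by which genes were called, so these medians are no separate result. None of the 79 holds an intron, against 22 of the 96 called lower (22.9%) and 4.72% of all. Without ribosomal protein genes 1 of 67 called lower holds one.

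Several of the genes that rose encode transporters and enzymes of carbon use that glucose holds down. HXT4, a hexose transporter of high affinity, stood at 263, 279 and 315 CPM in tho2Δ and 55.8, 60.9 and 53.1 CPM in wild type (log2 fold change 2.33 ± 0.17, adjusted p = 2.72e-14). HXK1, the hexokinase of cells short of glucose, stood at 253, 262 and 247 CPM against 49.1, 83.2 and 99.8 CPM (1.70 ± 0.18), and had 3.15 ± 0.17 in no-tag strains (adjusted p of the difference 0.000258). CYB2, the lactate dehydrogenase of the mitochondrial intermembrane space, stood at 48.5, 32.2 and 26.8 CPM against 2.23, 4.06 and 10.6 CPM (2.61 ± 0.47). GPM2, a homologue of phosphoglycerate mutase, rose by 2.12 ± 0.33. Of 8 tested hexose transport and sensing genes 3 were called higher and 0 lower, and of 37 respiratory and glucose-repressed genes off chromosome XVI 3 were called higher and 0 lower, with 8 rising and 1 falling, where 1.95% of all genes off that chromosome were called higher and 7.99% rose.

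PUT1, proline oxidase, stood at 77.9, 79.4 and 63.7 CPM in tho2Δ and 4.47, 10.1 and 17 CPM in wild type (2.76 ± 0.32). BAG7, a GTPase-activating protein for Rho1, stood at 76.2, 98.7 and 78.8 CPM against 8.94, 14.2 and 4.25 CPM (3.15 ± 0.33). TPO2, a polyamine exporter, stood at 443, 401 and 359 CPM against 80.4, 106 and 85.0 CPM (2.14 ± 0.15). The groups were apart in all of these genes, but the 14 highest genes were named on that condition, so it is no separate result. TPO2 has a near-identical copy, TPO3 on chromosome XVI, so reads could pass between them. COS1, a member of a subtelomeric family of membrane proteins, rose by 3.21 ± 0.29 and shares its sequence with COS2, COS3, COS4, COS5 and COS6, so that its source is uncertain. Of 60 genes within 20 kb of a chromosome end off chromosome XVI 10 were called higher and 5 lower, where 1.95% and 2.34% of all genes were.

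YRO2, a membrane protein related to Hsp30, rose by 1.78 ± 0.14, YGP1, a secreted glycoprotein of stationary cells, by 1.82 ± 0.25, and NCA3, a cell wall protein of the SUN family, by 2.04 ± 0.35. USE1, a SNARE of the endoplasmic reticulum, rose by 1.92 ± 0.32 and YOR338W, a gene of unknown function, by 2.12 ± 0.50. YAP6, a basic leucine zipper factor, stood at 74.4, 60.1 and 67.1 CPM against 8.94, 14.2 and 31.9 CPM (1.86 ± 0.30), and at 0.05 ± 0.37 in no-tag strains, with an adjusted p of 0.0109 for the difference. FIT2, a mannoprotein that holds iron at the cell wall, rose by 1.33 ± 0.25. It was 1 of 3 genes called higher among 20 of the iron and copper regulon off chromosome XVI, where 1.95% of all genes were. NRD1, which ends noncoding transcription early, was called higher at 1.01 ± 0.20, and lost the call without tho2Δ replicate 2 or wild type replicate 2 or 3 (0.92 at the lowest).

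The general stress genes had a lower median change here than in the no-tag pair. HSP12, a small membrane chaperone and a standard target of the stress factors Msn2 and Msn4, stood at 31.2, 36.5 and 30.2 CPM in tho2Δ and 2.23, 6.09 and 0 CPM in wild type, a log2 fold change of 3.4 ± 0.54. HSP12 was listed with the chaperones and not with the general stress genes counted here. Off chromosome XVI, 4 of 28 tested general stress genes were called higher and 1 lower, with a median of 0.36, where in the no-tag pair 22 were called higher and 0 lower, with a median of 1.45. Of all genes off chromosome XVI, 1.95% were called higher and 2.34% lower here, and 3.93% and 1.2% in the no-tag pair. The difference between the pairs passed the test in 17 of the 28, against 5.63% of all genes there. HSP26, a small heat shock protein, stood at 46.7, 64.4 and 36.9 CPM against 20.1, 40.6 and 40.4 CPM (0.51 ± 0.27, not passing), and in no-tag strains at 310.0, 355 and 268 CPM against 31.2, 37.8 and 39.5 CPM. HSP26 lies on chromosome II. PGM2 (phosphoglucomutase), CTT1 (cytosolic catalase) and FMP16 had log2 fold changes of −0.52, 0.09 and 0.53 that did not pass, against 1.76, 2.28 and 2.6 in no-tag strains. Among the called genes SOL4 (a phosphogluconolactonase) rose by 2.02 ± 0.55, and lost the call without tho2Δ replicate 2 (1.58), and GSY1 (a glycogen synthase) fell by 1.36 ± 0.36. HBT1 (a Hub1 target in mating), which is not on the general stress list, fell by 1.72 ± 0.46. The letters AGGGG, which Msn2 and Msn4 bind, were found on either strand in the 500 nt before the start codon in 41 of the 79 coding genes called higher off chromosome XVI (51.9%), in 29 of the 96 called lower (30.2%) and in 34.4% of all 5900.

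Of 31 chaperone genes off chromosome XVI 2 were called higher and 0 lower, with a median of 0.13. Of 33 proteasome genes there 9 rose and 0 fell, none past the fold limit, with a median of 0.22 against 0.00 in the no-tag pair. Of all genes off chromosome XVI, 1.95% were called higher and 2.34% lower, 7.99% rose and 14.6% fell. On chromosome XVI the genes with the largest changes exceeded its median of 0.95 by far. TDA6 stood at 499, 485 and 426 CPM against 49.1, 54.8 and 55.2 CPM (3.14 ± 0.15, 1.40 ± 0.19 in no-tag strains). TPO3 rose by 2.02 ± 0.14, CSR2 (a regulator of transporter turnover) by 2.0 ± 0.46, RMI1 (a partner of the Sgs1 helicase) by 1.99 ± 0.24, ROX1 (the repressor of hypoxic genes) by 1.97 ± 0.19 and USV1 (a zinc finger factor) by 1.96 ± 0.37.

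The lowest log2 fold changes beyond the phosphate and long genes belonged to genes of mixed function. TIR1, a cell wall mannoprotein of low oxygen and cold, stood at 3.46, 6.44 and 3.35 CPM in tho2Δ and 31.3, 50.7 and 42.5 CPM in wild type (−3.22 ± 0.44, adjusted p = 1.09e-07). WSC4, a stress sensor of the wall, stood at 8.65, 15 and 21.8 CPM against 82.7, 79.1 and 85.0 CPM (−2.41 ± 0.27). HO, the endonuclease gene of mating type switching, which is mutated in laboratory strains, stood at 62.3, 88.0 and 53.7 CPM against 290.4, 315 and 304 CPM (−2.18 ± 0.15). YHB1, the flavohemoglobin that removes nitric oxide, fell by 1.65 ± 0.19, and ICS2 of chromosome II, with no firm function, by 1.51 ± 0.20, where it had 0.34 ± 0.16 in no-tag strains.

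Of 14 pheromone response genes off chromosome XVI 6 fell and 0 rose, and 3 were called lower, where 14.6% of all genes fell and 2.34% were called lower. SST2, which turns the pheromone signal off, fell by 1.19 ± 0.22, FIG2, a wall protein of mating cells, by 1.23 ± 0.34, and FUS1, a fusion protein, by 1.01 ± 0.37. FUS1 was close to both limits and lost its call without tho2Δ replicate 1 or 2 or wild type replicate 1 or 3, with −0.74 at the weakest. Of 6 MATa-specific genes 3 fell, BAR1 (the protease that cuts alpha-factor) by 1.26 ± 0.17, STE6 (the exporter of a-factor) by 0.72 ± 0.11 and STE2 (the alpha-factor receptor) by 0.62 ± 0.17. STE2 stood at 83.7 to 133 CPM in tho2Δ, so the MATa identity of the strains was visible in both groups.

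Groups of genes tied to nuclear RNA and to DNA damage held few called genes. Over all tested genes 5.34% were called higher and 2.17% lower, and off chromosome XVI 7.99% rose and 14.6% fell. Of 12 tested genes for RNase H, topoisomerases and helicases against hybrids of RNA with DNA 1 was called, RMI1 on chromosome XVI. Of the 11 off that chromosome 3 fell and 1 rose. Of 12 tested targets of the DNA damage response 2 fell and 1 rose. The one called was RNR1 (the large subunit of ribonucleotide reductase), which fell by 1.01 ± 0.24 and lost the call without tho2Δ replicate 1 or wild type replicate 2 (−0.78 at the weakest). Of 21 genes of nuclear RNA decay off chromosome XVI 3 rose and 3 fell. Of 22 genes of nuclear mRNP assembly and export there 3 fell and 0 rose, with none called. Of 61 snoRNA genes there 0 were called, 3 rose and 8 fell, and of 122 genes with introns that are not ribosomal protein genes 7 rose and 16 fell, with a median of 0.02.

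The tho2Δ change in the Cbp80-PrA strains was then set beside that in the no-tag strains, which share no library with it. Over the 4033 tested genes off chromosomes II and XVI the log2 fold changes of the pairs had Spearman's rho of 0.522 across genes, which are not independent replicates. Of the 86 genes called higher off chromosome XVI 83 had the same direction in the no-tag pair, 58 passed the adjusted p there and 48 were called. Over all 4403 genes 11.9% rose there and 3.93% were called higher. Of the 103 called lower 93 had the same direction, 60 passed and 23 were called, where 1.2% of all genes were called lower. The difference itself passed the test in 8 of the 86, with the larger rise in the Cbp80-PrA strains in 5 of them. It passed in 26 of the 103, and in all 26 the fall was deeper in the Cbp80-PrA strains. Both sets were picked by their change in the Cbp80-PrA pair, so these directions are no separate result. Over all genes it passed in 460 (9.6%), of which 212 lay on chromosome XVI, 54 on chromosome II (53 of them lower in the Cbp80-PrA pair) and 194 elsewhere, 43 higher and 151 lower. Each group came from 1 strain, and the tag cannot be told apart from other differences between the strains.

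**Figure D5:**
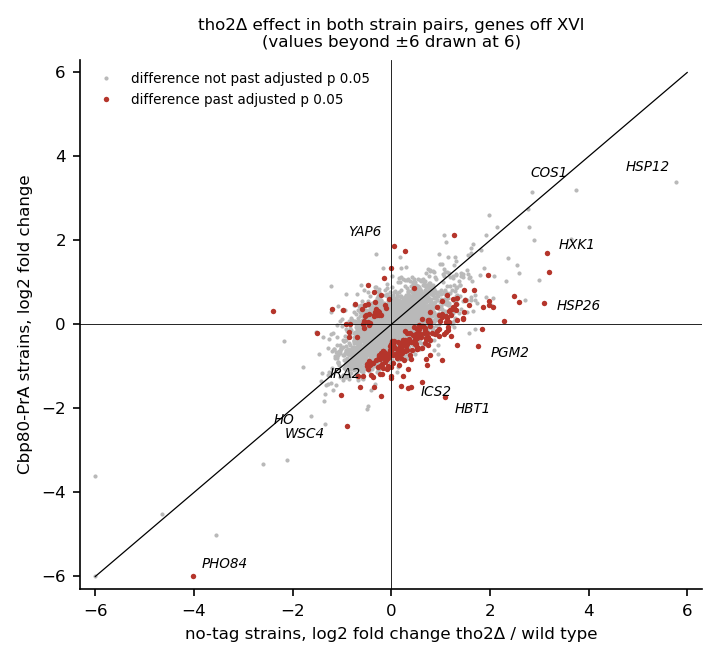
Log2 fold change (tho2Δ over wild type) in the Cbp80-PrA strains (y axis) against that in the no-tag strains (x axis). Each tested gene off chromosome XVI is 1 point, in colour where the difference between the pairs had an adjusted p under 0.05. Over the genes off chromosomes II and XVI Spearman's rho is 0.522.

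Mitochondrially encoded genes had a median of −0.33 here and 0.75 in the no-tag pair. The difference passed the test in 10 of 12, against 5.63% of all genes off chromosome XVI. Of the 12, 1 was called lower here, AI4 at −1.05 ± 0.25 (not called without tho2Δ replicate 1 or wild type replicate 2, at −0.89). Of 91 Ty genes 11 could be tested, with 1 called higher and 4 lower. Of all genes off chromosome XVI, where these 11 lie, 1.95% were called higher and 2.34% lower. Near-identical copies of the Ty genes leave the source of those reads uncertain.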

How the data were processed

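The authors extracted and collapsed unique molecular identifiers with UMI-tools 1.0.1, aligned reads with STAR 2.7.10a to R64 and counted them with HTSeq 2.0.2, and the deposited table holds these raw counts for 6461 genes, with runs of 1 library on both sequencers already summed. The strand setting is not given in the sources used here. The 5 summary lines were left out, of which reads on no gene made up 46.0% to 50.7% of a library. The 3 lines without a gene name were not used here. Normalized values deposited by the authors, a signal made from the same counts with DESeq2 1.38.2 size factors, were not used.

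The counts of 15 total RNA libraries (5 groups of 3) were fitted with 1 mean per group in edgeR 4.0.16 (TMM, filterByExpr, robust quasi-likelihood test) under R 4.3.3, which leaves 4792 genes and a biological coefficient of variation of 0.0867. Contrasts were tho2Δ against wild type in the Cbp80-PrA strains, the same in no-tag strains, and the difference of both. Calls needed a Benjamini-Hochberg adjusted p below 0.05 together with a log2 fold change past 1 in size. Gene lists and members were chosen with earlier results of these data known. Named genes were the 14 highest and 14 lowest called coding genes off chromosome XVI whose mean CPM reached 20 and whose groups do not overlap, 6 each way on chromosome XVI, up to 4 called members each way per list, up to 6 each way for the difference of both effects, and always THO2, HPR1, MFT1, THP2, TEX1, SUB2, YRA1, STO1, PHO84, SPL2, IRA2, TAO3, MDN1 (REA1 in the annotation), the marker loci, MATa-specific genes and neighbours of THO2. Other genes named (such as PHO3, PHO4, PHO85, PHO90, VIP1, VTC2, CYR1, CCH1, SEC16, HOB2, HTA2, HHF2 and further members of the lists described) were chosen after their values were seen. Near-identical copies were coding sequences with at least 90% identity over 100 nt in BLAST 2.17.0. Promoter windows of 500 nt were read from the R64 genome, since no promoter table was used. A ratio with 1 to 3 counts has an exact 95% interval, and against 0 counts a floor of 3 counts per group was used. The fit was tested on simulated data. Alternatives were median-ratio scaling, total counts, TMM off chromosome XVI, no filter, DESeq2 1.42.0, a test against the fold limit, the 6 libraries alone, a replicate block and leaving out each library.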

Additional observations from a re-analysis of the deposited data

Results flagged for a closer look

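For 35 genes named above the change in the Cbp80-PrA strains differed from that in the no-tag strains by the test of the difference itself (edgeR, adjusted p under 0.05 over all tested genes). The values below are the log2 fold change in Cbp80-PrA minus that in no-tag strains.

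Among genes of the strains and of phosphate, the difference was −0.66 for STO1, −5.48 for PHO84 (a fitted value that rests on 0 counts in tho2Δ and is no bound), 0.70 for VTC3 and 0.88 for GDE1, of which the last pair lie on chromosome XVI. Among long genes it was −0.76 for IRA1, −0.95 for IRA2, −0.64 for FAS1, −0.79 for CSF1, −0.86 for TOR1 and −1.1 for CYR1, and on chromosome XVI 0.57 for SEC16 and 1.07 for HOB2. It was −0.55 for RPL21A and, on chromosome XVI, 1.25 for RPS9A.

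Among genes that rose it was 0.87 for TPO2, 1.81 for YAP6 and −1.45 for HXK1, and on chromosome XVI 1.73 for TDA6, 1.48 for TPO3 and 1.48 for RMI1. Among genes that fell it was −1.52 for WSC4, −0.66 for BAT2, −1.85 for ICS2, −1.13 for FUR1, −0.86 for FUI1, −0.89 for BAR1, −1.0 for SST2 and −0.57 for STE6. Genes of stress had −2.59 for HSP26, −2.28 for PGM2, −2.18 for CTT1, −2.07 for FMP16 and −1.99 for GSY1. HBT1 had −2.8 and the mitochondrial AI4 had −1.38. The causes were not tested.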

How the results depend on the processing

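Leaving out each library in turn gave 238 to 289 genes called higher and 101 to 115 called lower, medians of 0.94 to 0.97 for chromosome XVI and −0.30 to −0.24 for chromosome II, and 9 to 11 phosphate targets, 26 to 34 ribosomal protein genes and 30 to 34 genes over 6000 nt lower. Tested against the fold limit, 33 genes were higher and 14 lower, 5 of the phosphate targets and 0 ribosomal protein genes. Without chromosome XVI, 86 were called higher and 352 rose by the adjusted p, and without II and XVI, an alternative chosen after seeing the data, 80 and 340. With total counts 18 ribosomal protein genes were called lower, and the medians were 1.02 for chromosome XVI and −0.20 for II. With TMM factors off chromosome XVI its median was 0.99. The difference of both effects was higher in 255 and lower in 205 genes, in 166 and 112 with DESeq2, and higher in 44 and 43 without those chromosomes. HPR1 turned to 0.00497 with total counts. Leaving out 1 library, THP2 ran from −0.27 to 0.65, CTT1 from −0.0709 to 0.36 and PHO80 from −0.285 to 0.086, and none of these passed. MFT1 passed with total counts (0.35, adjusted p = 0.016) and with TMM off chromosome XVI (0.32, 0.0271). Of 71 genes named with a test that were called, 15 lost the call without 1 library, each given above. A further 6 that passed the adjusted p alone lost it, which were TAO3, HHF2 and PHO85, given above, and PHO86, VIP1 and HIS3. The replicate numbers did not pair the samples (correlations of deviations −0.055, 0.066 and 0.053), and with a replicate block 261 genes were called higher and 105 lower. GDE1 lost its call in that block (0.997) and without a filter. Depth limits genes of few counts, since 1 count was 1.68 to 2.23 CPM.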
